A study of Mus musculus with 6 samples.

Results

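Cells hold on to the extracellular matrix through receptors that recognise laminin and fibronectin, and the genes of 8 such receptor subunits and of fibronectin itself were examined here for GATA4 and GATA6 binding in mouse extra-embryonic endoderm (XEN) cells. The 9 genes were Itga3, Itga5, Itga6, Itgav, Itgb1, Itgb4, Itgb5, Dag1 and Fn1, out of 21938 protein-coding genes of the annotation. They were named for the role of their products, with earlier results of these data known. Every called region that touched the gene body or fell no more than 50 kb from any of its transcription start sites (TSSs) was counted as a region of that gene, which gave windows of 109.3 to 216.9 kb against a median of 104.2 kb over all genes.

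XEN cells are stem cells of the primitive endoderm, the lineage that faces the blastocyst cavity and contributes to the yolk sac, and GATA4 and GATA6 are zinc finger transcription factors of that lineage. The series profiled both factors by CUT&RUN, in which an antibody-tethered nuclease releases the DNA beside a bound protein, in the starting cells of a reprogramming system, with 3 libraries for each factor and 500000 cells per reaction. The libraries are labelled 3F2, a XEN line that the study derived from mice with a doxycycline-inducible Oct4, Klf4, Sox2 and mCherry cassette, an M2rtTA transactivator at Rosa26 and a Pou5f1-IRES-EGFP reporter, and both groups share these alleles and differ in the antibody. The methods name a sister line, 3F6, beside 3F2 and a smaller number of replicates, and the labels, which were followed here, do not say whether the 3 libraries of a factor came from separate cultures, so SDs and p-values measure the spread between libraries, which may be technical. Binding lists hold no expression values, so the identity of the cells could not be checked on marker transcripts, and the IgG reaction of the methods was not analysed here.

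Each library had its own list of regions, 42446 to 49597 in all, made by the authors with a peak caller for sparse data at a fixed numeric threshold and without scaling for depth. Read totals after filtering were not in these files. The labels state 30000000 reads per sample. Each region had a total signal, which is the fragment pileup summed over its bases, and a maximum signal, which is the highest number of stacked fragments. The median maximum was 4 fragments in each of the 6 libraries, so a typical region was thinly covered. Because signal was not scaled, it is given here as a percentile, the share of a library's own regions with a lower total signal. A combined list per factor holds the regions present in all of its replicates, without signal.

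Integrins are pairs of an alpha and a beta subunit, and the pair decides what the cell can hold. Itga3 and Itga6 pair with Itgb1 to bind laminins, and Itga6 also pairs with Itgb4, which connects to keratin filaments. Itga5 with Itgb1 is the classical fibronectin receptor, and Itgav with Itgb5 or Itgb1 binds vitronectin and fibronectin through the RGD tripeptide. Dystroglycan, the product of Dag1, is a laminin receptor outside the integrin family. Primitive endoderm cells lay down a laminin-rich basement membrane and attach to it, and loss of Itgb1 or Dag1 in mice disturbs the earliest basement membranes of the embryo.

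Combined regions were found at 6 of the 9 genes. The GATA4 list had a region at 4 of 9 (Itgb1, Itgb4, Dag1 and Fn1), where 48.2% of all protein-coding genes had one. The GATA6 list had a region at 5 of 9 (Itga3, Itga5, Itgb4, Dag1 and Fn1), against 38.3% of all genes. Itgb4, Dag1 and Fn1 had regions of both lists, 3 of 9 against 33.8% of all genes. Itga6, Itgav and Itgb5 had neither, 3 of 9 against 47.3%. The counts thus lay on both sides of the shares among genes at large, above for GATA6 and below for GATA4, in windows wider than the median. The 10 GATA4 and 8 GATA6 regions formed 12 separate loci, of which 6 were in both lists, 4 in the GATA4 list alone and 2 in the GATA6 list alone.

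Most of these loci were not at the receptor gene whose window they fell in. Dag1 and Itgb1 each had a locus at their own promoter, taken as within 1 kb of a TSS, Itgb4 had one in its gene body, and Fn1 had one in intergenic DNA with Fn1 as the nearest gene by TSS. The other 8 loci lay at other genes, 7 of them at the promoters of neighbours such as Rhoa, Nicn1, H3f3b, Unk, Pdk2 and Atic, and 1 in an intron of the long noncoding RNA gene Gm49482. When a region was assigned to the nearest TSS alone, 3 of the 9 genes kept a GATA4 region (Itgb1, Dag1 and Fn1) against 24.5% of all genes, and 2 of 9 kept a GATA6 region (Dag1 and Fn1) against 17.2%.

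**Figure D1:**
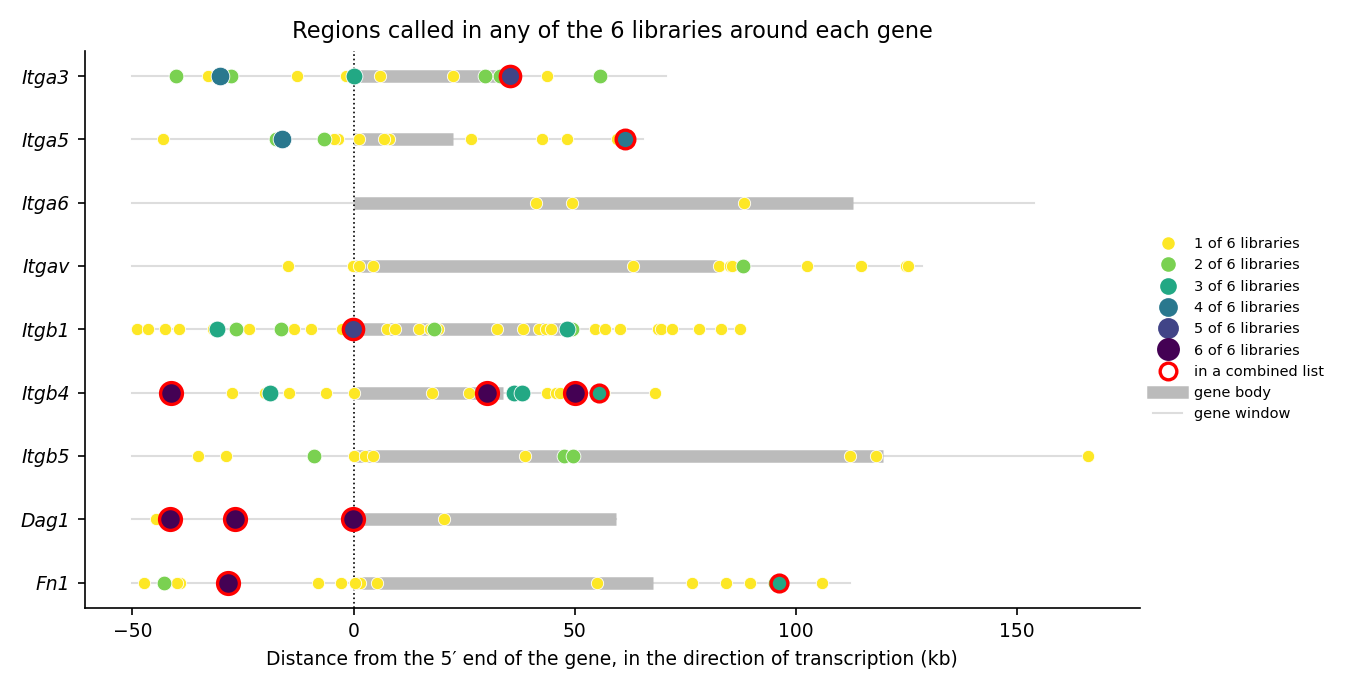
Every region called in at least 1 of the 6 libraries around the 9 genes, drawn by its distance in kb from the 5′ end of the gene in the direction of transcription, with the colour and size of a point giving the number of libraries and a red ring marking regions in a combined list. Of the 138 regions 100 were called in 1 library, and the 7 called in all 6 lay at Itgb4, Dag1 and Fn1.

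The region upstream of Fn1 and the promoters of Dag1 and Itgb1 are shown, the 3 loci whose nearest TSS was that of the gene they were counted for. The Fn1 region was also picked because it lies outside promoters and exons and holds a GATA motif within 100 bp of its midpoint. Its holding a motif was thus part of the choice. The first sequence is the 200 bases around the middle of the Fn1 locus, chr1:71681438-71681637 of mm10, plus strand, with GATA motifs in capitals. The motif has 4 spellings, AGATAA and AGATAG beside TGATAA and TGATAG, and was read on both strands, so that a minus-strand match appears as its reverse complement (TTATCT here). The other sequences are the 250 bases before the annotated RefSeq start of Dag1 (chr9:108263959-108264208, minus strand) and of Itgb1 (chr8:128685404-128685653, plus strand) in GRCm38.p6, the assembly of mm10, with GC boxes (GGGCGG on either strand) in capitals.
Fn1 upstream region: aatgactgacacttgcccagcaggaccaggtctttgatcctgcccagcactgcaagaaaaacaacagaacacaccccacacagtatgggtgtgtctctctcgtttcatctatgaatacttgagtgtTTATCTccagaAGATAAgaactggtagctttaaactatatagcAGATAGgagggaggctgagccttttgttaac
Dag1 promoter: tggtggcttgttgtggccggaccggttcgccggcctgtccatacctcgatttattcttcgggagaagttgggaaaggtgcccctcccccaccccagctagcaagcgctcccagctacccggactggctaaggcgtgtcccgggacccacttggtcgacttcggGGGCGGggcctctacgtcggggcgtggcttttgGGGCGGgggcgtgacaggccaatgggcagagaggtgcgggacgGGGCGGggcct
Itgb1 promoter: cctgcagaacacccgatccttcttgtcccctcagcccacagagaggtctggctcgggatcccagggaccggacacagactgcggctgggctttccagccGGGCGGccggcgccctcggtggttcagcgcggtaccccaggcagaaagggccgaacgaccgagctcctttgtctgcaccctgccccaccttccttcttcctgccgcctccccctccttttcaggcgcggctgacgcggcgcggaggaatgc

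Neither promoter sequence held a GATA motif, although the wider Itgb1 locus held 1, which lay 304 to 395 bp from the maxima of its 5 calls. RefSeq start sites of 6 of the 9 genes were matched, with 8 start sites in all (Itga3 and Dag1 have 2 each), and none of the 8 sequences of 250 bases held a GATA motif, which 26.5% of 32851 mouse promoter sequences of that length did. The GC box was in 32.7% of them and AP-1 (TGAGTCA or TGACTCA) in 4.46%. A match of letters is a description of the sequence and does not show that the factor was bound there.

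Over the 12 loci, a GATA motif lay within 100 bp of the midpoint in 1, the Fn1 upstream region, or 8.33% (exact 95% interval 0.211 to 38.5%), where 37.2% of all 9655 loci of the combined lists held one. Of the 12 loci, 9 were at a promoter of some gene, 75% (exact 95% interval 42.8 to 94.5%). Of all 9655 loci, 4717 were at one. None of the 9 held the motif around its midpoint (exact upper limit 33.6%), against 17.3% of the 4717 promoter loci. Away from promoters it was 1 of 3, against 56.3% of 4938 loci. The Nicn1 region of the GATA4 list was centred differently and held 1 match around its own midpoint. These shares depend on the window searched. Within 250 bp of the midpoint 3 of 12 loci held a match (25%) against 59.0% of all loci, within 100 bp of the highest maximum 3 of 12 against 42.8%, and anywhere in the locus, a window added after the data were seen, 7 of 12 (58.3%) against 70.6%.

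A GC box lay in 6 of 12 loci (50%) against 30.3% of all loci, and among promoter loci in 5 of 9 (55.6%) against 51.5%. AP-1 lay in 0 of 12 (exact upper limit 26.5%) against 5.48%, although the Recql5 and Sap30bp region of the GATA4 list held 1 match around its own midpoint. The intervals cover counting error only, and several loci share a gene, so they are not independent samples.

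Of the laminin receptor subunits, Itgb1, the beta subunit common to the laminin and fibronectin receptors (chr8:128685654-128733200, plus strand), had a GATA4 region over its own promoter at chr8:128685228-128685961, with its midpoint 59 bp upstream of the TSS. The maximum signal there was 8, 6 and 6 fragments in GATA4 replicates 1, 2 and 3, and the total signal ranked at the 93.5, 88.2 and 78.3 percentile, a mean of 86.7 ± 7.71 (SD, n = 3). GATA6 replicates 2 and 3 also called the site, with maxima of 4 and 9 and percentiles of 86.7 and 95.2. GATA6 replicate 1 did not, and its absence alone kept the site out of the GATA6 list. The Itgb1 promoter was therefore called in 5 of 6 libraries, with total signal at high rank in each. By maximum signal the call of GATA6 replicate 2 stood at the 56.8 percentile of its list.

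The Itgb1 window had 13, 11 and 5 called regions in the GATA4 libraries (9.67 ± 4.16, SD, n = 3) and 6, 6 and 7 in the GATA6 libraries (6.33 ± 0.577, SD, n = 3). The groups overlapped. Chromosome 8 carried 47.4 called regions per Mb as a mean over the 6 libraries, against 12.7 to 18.0 on the chromosomes of the other 8 genes. The Itgb1 window had 57.7 per Mb by the same mean. The part of the chromosome in that number was not tested. Of its 36 distinct regions, 29 were called in 1 library. Those called in 3 were an intergenic one 30.9 kb upstream and one 9.60 kb from the nearest Itgb1 TSS just past the 3′ end of the gene, each with maxima of 3 to 6 fragments.

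Itga3, an alpha subunit for laminins (chr11:95044474-95076801, minus strand), had 8, 4 and 5 called regions in the GATA4 libraries and 2, 7 and 5 in the GATA6 libraries (5.67 ± 2.08 and 4.67 ± 2.52, SD, n = 3 each), with overlapping groups. Its 1 combined region, of the GATA6 list, was the promoter of Pdk2, a kinase gene just beyond its 3′ end (chr11:95041139-95041710, 14.8 kb from the nearest Itga3 TSS). The GATA6 percentiles there were 78.0, 67.4 and 13.0, and 2 GATA4 libraries called it as well, at 63.4 and 75.5. At its own 5′ promoter Itga3 was called in GATA4 replicates 1 and 3 and in GATA6 replicate 3, with maxima of 7, 6 and 4 fragments. An intergenic region 30.1 kb upstream (chr11:95106631-95107225) was called in 2 libraries of each factor at percentiles of 31.2 to 47.8, and the gene with the nearest TSS was Dlx3.

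Itga6, the alpha subunit of both the Itgb1 and the Itgb4 laminin receptors (chr2:71745616-71858416, plus strand), had the fewest regions. GATA4 replicate 1 called 1 region in its window and GATA6 replicate 2 called 2, and the other 4 libraries called none over 203.8 kb. The 3 regions were all inside the gene, with maxima of 3, 3 and 4 fragments, and none was shared between libraries. As a mean over the 6 libraries, the window had 2.45 called regions per Mb, where chromosome 2 had 12.7. It ranked at the 6.49 percentile of protein-coding genes. Signal below the caller's threshold does not appear in these lists.

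Itgb4, the beta subunit that pairs with Itga6 (chr11:115974709-116008412, plus strand), had regions in every library. The GATA4 libraries called 8, 8 and 9 regions (8.33 ± 0.577, SD, n = 3) and the GATA6 libraries 8, 6 and 4 (6 ± 2, SD, n = 3), so that the groups touched at 8. At 60.6 regions per Mb against 18.0 for chromosome 11, the window ranked at the 90.4 percentile of protein-coding genes, in a stretch with many neighbours. Of its 4 loci in the combined lists, 3 lay at promoters of other genes. The one shared by Recql5 and Sap30bp, 41.2 kb upstream (chr11:115933130-115933815), had maxima of 11, 10 and 12 in GATA4 and 11, 13 and 11 in GATA6. The H3f3b promoter (chr11:116024121-116025148, 31.7 kb from the nearest Itgb4 TSS) was also in both lists, with maxima of 8, 5 and 9 and of 5, 7 and 9. The Unk promoter (chr11:116029722-116030558) was in the GATA4 list with maxima of 7, 7 and 6, and the nearest GATA6 calls, in replicates 2 and 1, ended 21 bp and began 528 bp away from it.

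The 1 locus inside Itgb4 was at chr11:116004492-116005297 (midpoint in an intron, 12.0 kb from the nearest Itgb4 TSS) and was in the GATA4 list alone, although all 6 libraries called something there. The GATA4 calls had maxima of 5, 8 and 9 and percentiles of 42.3, 85.8 and 91.4, and the GATA6 calls had maxima of 6, 4 and 4 and percentiles of 86.9, 84.0 and 13.9. The call of GATA6 replicate 3 ended before those of replicates 1 and 2, which overlapped each other, began, and the site was not in the GATA6 list. The calls of GATA4 replicates 1 and 2 did not overlap either, but that of replicate 3 spanned both. Around the positions of maximum signal in GATA4 replicates 2 and 3 a GATA motif lay 27 and 16 bp away, while the maximum of GATA4 replicate 1 lay 287 bp from the nearest match and those of GATA6 lay 280, 398 and 106 bp away. Placement in 1 list therefore rested here on how calls overlapped and not on a library without signal.

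Dag1, the gene of dystroglycan (chr9:108204634-108263958, minus strand), was the 1 gene of the 9 with a call within 1 kb of a TSS in all 6 libraries, which 12.2% of protein-coding genes had. At the promoter (chr9:108263789-108264337) the maximum signal was 8, 3 and 7 fragments in GATA4 and 10, 7 and 10 in GATA6. The percentiles were 76.8, 26.6 and 62.6 in GATA4 (55.3 ± 25.9, SD, n = 3) and 86.9, 79.9 and 95.6 in GATA6 (87.5 ± 7.90, SD, n = 3). All 3 GATA6 values lay above all 3 GATA4 values, which was seen after the values were known and not tested. Of the 6 loci in both lists, this held at 2, the Dag1 and Nicn1 promoters, and the reverse held at 1, the Rhoa and Tcta promoter, where 5.67% and 13.7% of 3685 such loci of the genome separated in those directions. By percentile of maximum signal, all GATA6 values lay above at the Dag1 promoter and at the Recql5 and Sap30bp promoter. At the Nicn1 promoter and at the Rhoa and Tcta promoter the factors overlapped by that measure. No share over the genome was taken for it.

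The other 2 Dag1 loci were promoters of its upstream neighbours. Nicn1, 26.7 kb upstream (chr9:108290236-108291175), had maxima of 8, 8 and 9 in GATA4 and 8, 7 and 10 in GATA6. Rhoa, the gene of a small GTPase that acts on the actin cytoskeleton downstream of integrins, shares a stretch with Tcta 41.5 kb upstream (chr9:108304406-108306459). That locus had the highest signal found at the 9 genes, with maxima of 18, 16 and 15 in GATA4 and 19, 10 and 19 in GATA6, and percentiles from 98.9 to 99.5 in all 6 libraries. The Dag1 window had 4 called regions in each GATA4 library and 4, 3 and 4 in the GATA6 libraries, and of its 6 distinct regions 3 were called in all 6 libraries and 3 in 1.

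**Figure D2:**
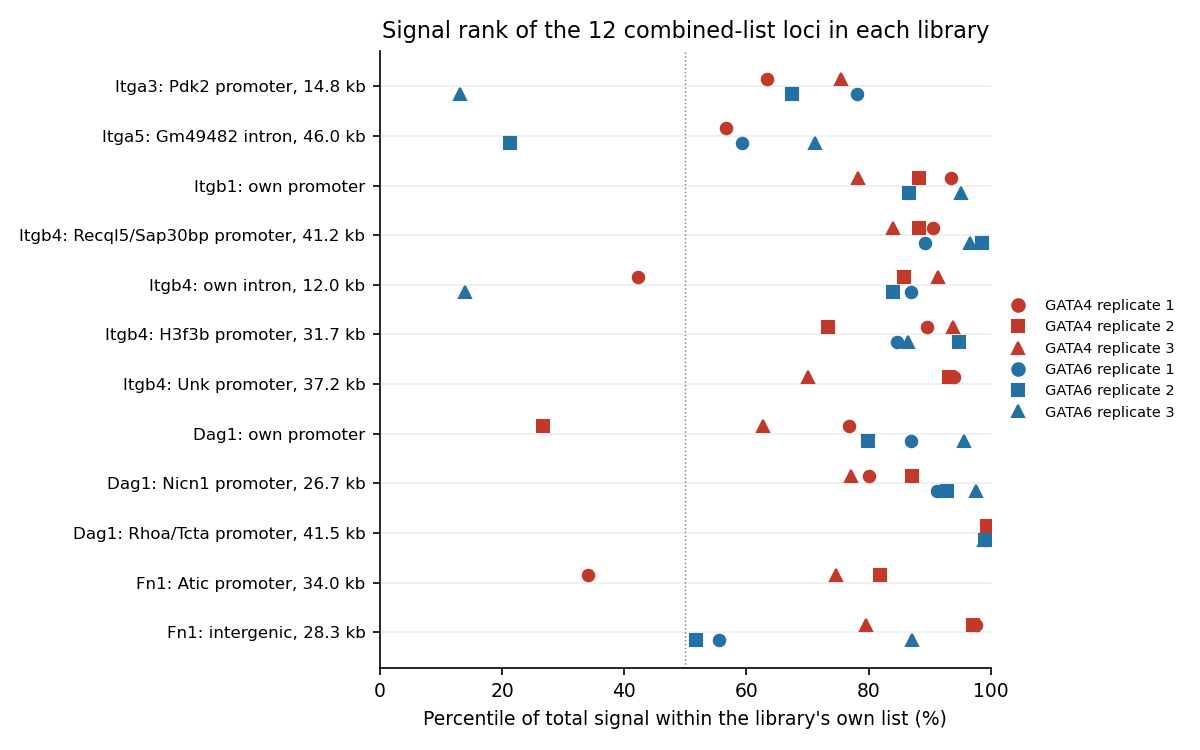
Percentile of total signal within the library's own list for the 12 loci of the combined lists, with GATA4 libraries in red above each line and GATA6 libraries in blue below it, and the distance to the nearest TSS of the receptor gene given where it is over 1 kb (highest call where a library had several). The Rhoa and Tcta promoter stood at 98.9 to 99.5 in all 6 libraries, while the Dag1 promoter ran from 26.6 to 95.6.

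Among the fibronectin receptors, Itga5, the alpha subunit of the classical fibronectin receptor (chr15:103344286-103366763, minus strand), had 5, 3 and 4 called regions in GATA4 and 4, 3 and 4 in GATA6 (4 ± 1 and 3.67 ± 0.577, SD, n = 3 each). Its combined region, of the GATA6 list, lay in an intron of Gm49482 46.0 kb beyond the nearest Itga5 TSS (chr15:103305142-103305696), with GATA6 percentiles of 59.2, 21.2 and 71.2 and 1 GATA4 call at 56.6. A region nearer to the gene, 16.1 kb upstream in intergenic DNA with Itga5 as the nearest TSS (chr15:103382533-103383203), was in neither list but was called in 2 libraries of each factor, with maxima of 5 and 5 in GATA4 and 4 and 6 in GATA6. Its percentiles ran from 4.24 to 73.7.

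The 200 bases around the midpoints of the 4-library regions upstream of Itga5 (chr15:103382768-103382967) and Itga3 (chr11:95106828-95107027), on the plus strand of mm10, are shown for comparison with Fn1. They were chosen after their values were seen. Each held 1 GATA match, in capitals. The other region called in 4 libraries, in the Gm49482 intron, held none within 100 bp of its midpoint and is not shown.
Itga5 upstream region: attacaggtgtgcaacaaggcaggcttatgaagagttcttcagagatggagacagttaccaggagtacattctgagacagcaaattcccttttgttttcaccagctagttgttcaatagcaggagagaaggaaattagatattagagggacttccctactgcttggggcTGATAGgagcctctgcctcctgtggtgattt
Itga3 upstream region: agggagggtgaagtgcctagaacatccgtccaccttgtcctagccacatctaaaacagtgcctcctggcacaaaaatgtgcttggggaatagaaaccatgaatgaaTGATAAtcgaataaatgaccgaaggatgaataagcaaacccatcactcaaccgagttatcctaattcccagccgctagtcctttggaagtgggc

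Itgav, which pairs with several beta subunits to bind RGD ligands (chr2:83724397-83806916, plus strand), had 3, 1 and 0 called regions in GATA4 and 2, 3 and 5 in GATA6 (1.33 ± 1.53 and 3.33 ± 1.53, SD, n = 3 each), and the groups overlapped. Of its 13 distinct regions 12 were called in 1 library, and the 1 called in 2 libraries was the promoter of Fam171b. Itgb5, its vitronectin-binding partner (chr16:33829665-33949338, plus strand), had 3, 4 and 1 in GATA4 and 2, 1 and 4 in GATA6 (2.67 ± 1.53 and 2.33 ± 1.53, SD, n = 3 each). Its 12 distinct regions included 3 called in 2 libraries, 2 of them in its own introns. The density of called regions was 13.1 per Mb for Itgav and 11.5 for Itgb5, near the 12.7 and 13.6 of their chromosomes.

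Fn1, the gene of fibronectin, the ligand of the Itga5 receptor (chr1:71585520-71653200, minus strand), had the one locus in both lists that was neither at a promoter nor nearer to another gene. It lay 28.3 kb upstream at chr1:71681246-71681830. The maximum signal was 14, 13 and 8 fragments in the GATA4 libraries and 8, 8 and 10 in the GATA6 libraries. The percentiles were 97.6, 97.1 and 79.6 in GATA4 (91.4 ± 10.3, SD, n = 3) and 55.5, 51.8 and 87.1 in GATA6 (64.8 ± 19.4, SD, n = 3), so the groups overlapped.

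This was also the locus with the most GATA motifs. The 200 bases printed above held 3, where 5.14% of all combined loci and 9.32% of those away from promoters held at least 3, and the whole locus held 6. The calls of GATA4 replicates 1, 2 and 3 held 6, 4 and 5 of them, and those of GATA6 held 4, 3 and 5. From the position of maximum signal to the nearest match was 41, 36 and 7 bp in GATA4 and 54, 43 and 45 bp in GATA6. The region had 44.5% GC in its central 200 bases and few CpG dinucleotides (observed over expected 0.101), unlike the Dag1 and Itgb1 promoters (0.755 and 0.897).

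**Figure D3:**
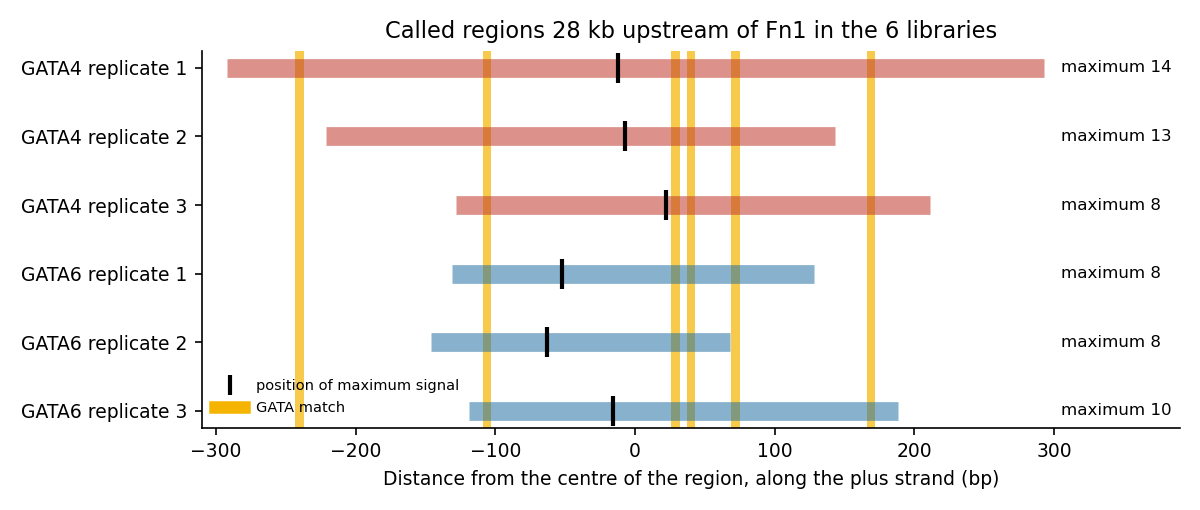
Calls of the 6 libraries at the locus 28.3 kb upstream of Fn1, as bars along the distance in bp from the centre of the region (GATA4 red, GATA6 blue), with a black tick at the middle of the stretch of maximum signal, the maximum in fragments at the right and the 6 GATA matches as yellow bands. All 6 calls cover the centre, and the maxima lie 7 to 54 bp from the nearest match.

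The other Fn1 locus was in the GATA4 list alone, at the promoter of Atic 34.0 kb from the nearest Fn1 TSS (chr1:71556824-71557278), with maxima of 5, 6 and 8. GATA6 replicates 2 and 3 called regions 385 and 220 bp from it in the same promoter, and GATA6 replicate 1 called none within 2 kb. The Fn1 window had 6, 3 and 6 called regions in GATA4 and 4, 3 and 4 in GATA6 (5 ± 1.73 and 3.67 ± 0.577, SD, n = 3 each). At its own TSS Fn1 was called in 1 library.

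A call within 1 kb of a TSS was found for each of the 9 genes in at least 1 library, against 59.7% of all genes. Itgb1 had one in 5 libraries, Itga3 in 3, Itgav and Itgb5 in 2, and Itga5, Itga6, Itgb4 and Fn1 in 1. A call near any annotated start counted, and the 9 genes had 4 to 17 annotated transcripts each. The number of start sites in genes at large was not compared. When a region needed 2 of 3 replicates in place of all, 7 of 9 genes had a GATA4 region (not Itga6 and Itgav) against 65.3% of all genes, and 6 of 9 had a GATA6 region (not Itga6, Itgav and Itgb5) against 60.4%.

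**Figure D4:**
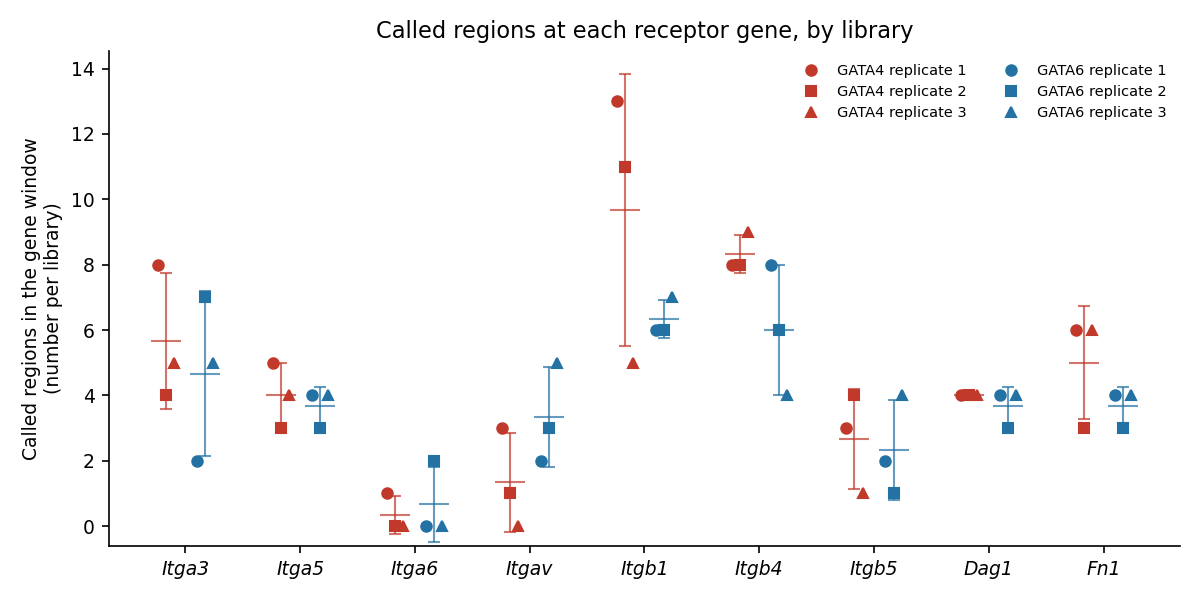
Number of called regions in each gene window by library, with GATA4 in red, GATA6 in blue, the shape giving the replicate, the horizontal bar the mean and the whiskers the SD (n = 3). Itgb1 and Itgb4 have the most regions and Itga6 the fewest, and the GATA4 and GATA6 libraries overlap or touch at every gene.

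The study's design sets GATA4 beside GATA6, and in 0 of the 9 genes did the numbers of called regions separate the factors. Among 20940 genes with any region, every GATA4 library was above every GATA6 library in 5.62% and the reverse held in 1.56%. Over the 9 genes together the GATA4 libraries called 51, 38 and 34 regions (41 ± 8.89, SD, n = 3) and the GATA6 libraries 32, 34 and 37 (34.3 ± 2.52, SD, n = 3). The difference of 6.67 regions was within the spread (two-sided exact permutation p = 0.3, adjusted 0.6 over 3 tests), and 3 against 3 libraries cannot give a p below 0.1. As a percent of each library's list, it was 0.0848 ± 0.0165 in GATA4 and 0.0773 ± 0.00751 in GATA6 (SD, n = 3 each; exact permutation p = 0.6, adjusted 0.6). Without GATA4 replicate 1 the sign of that difference turned, to -0.00148 percentage points.

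The mean percentile of total signal of the called regions at the 9 genes was 52.1, 54.3 and 67.6 in GATA4 (58.0 ± 8.38, SD, n = 3) and 51.8, 52.4 and 55.7 in GATA6 (53.3 ± 2.12, SD, n = 3). The difference of 4.71 points was smaller than the spread of the GATA4 libraries (exact permutation p = 0.6, adjusted 0.6). It rested on GATA4 replicate 3, without which it was -0.0892. The middle of a list is at 50 by construction, so regions at these genes ranked near the middle of their lists in 5 of the 6 libraries.

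Most regions at these genes were called in 1 library. Merging the 6 lists gave 138 distinct regions in the 9 windows, of which 72.5% were called in 1 library, 13.0% in 2, 5.80% in 3 and 5.07% in all 6. Over the 201994 merged regions of the genome, 83.2% were called in 1 library and 1.88% in all 6. Of the 138, 2 were called in all 3 GATA4 libraries and in no GATA6 library, the Unk and Atic promoters already described with GATA6 calls beside them, and 0 were called in all GATA6 libraries and no GATA4 library. Genome-wide these kinds made up 0.37% and 0.0921% of merged regions. These shares are descriptions, since neighbouring regions and genes share libraries and chromosomes.

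Around the 9 genes stand the other receptors, the proteins that bind their cytoplasmic tails, the enzymes that build the laminin-binding sugar of dystroglycan and the ligands, taken as 5 lists with 65 genes in all. A GATA4 region was present at 38 of the 65 and a GATA6 region at 30, with 29 having both, where the shares among all genes were 48.2%, 38.3% and 33.8%. Windows differed in width, with medians of 123.1 to 153.3 kb for the 5 lists and single windows up to 2329 kb, against the median of 104.2 kb over all genes. The highest counts were in the adhesion complex, with 15 of 19 for GATA4 and 11 of 19 for GATA6. Actn4 and Actn1, which crosslink actin, had 4 and 3 and 4 and 2 regions of GATA4 and GATA6, and Bcar1, an adaptor of focal adhesions, had 4 and 3. Of the 19, 3, Bcar1 among them, are on chromosomes 8, 14 or 19, where called regions were dense, and among the other 16 the counts were 12 and 8. Over all 5 lists, 60 genes were on other chromosomes, with a GATA4 region at 33 and a GATA6 region at 25.

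Other integrin subunits had a GATA4 region at 6 of 13 genes and a GATA6 region at 4. Itgb6, a partner of Itgav, had 4 GATA4 and 1 GATA6 regions, Itga10 had 2 and 0, and Itga1 had 1 and 1. Other matrix receptors had them at 5 and 3 of 10, led by Bcam, a receptor for the laminin chain Lama5, with 4 and 3, followed by Ddr1 with 1 and 2 and Gpc4 with 1 and 1. Sdc4, with 2 and 0, tied with Gpc4 in total. Dystroglycan partners and glycosylation enzymes had them at 6 and 7 of 13. Among those, B4gat1 had 3 and 3 and Pomt1 3 and 2, both enzymes that build the sugar chain to which laminin binds. Of the 13, 2, B4gat1 on chromosome 19 among them, are on chromosomes 8, 14 or 19. Among the other 11 genes, 4 had a GATA4 and 5 a GATA6 region.

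The regions of the ligands were concentrated in the laminin genes. Among 10 matrix genes, 6 had a GATA4 and 5 a GATA6 region, with 27 and 19 regions in all and medians of 1.5 and 0.5 per gene, against medians of 2 and 1 in the adhesion complex. Lamb1 had 9 and 6, Lamc1 7 and 7, and Lama1 5 and 4, the chains of the main laminin of the early embryonic basement membrane. By the same count, the laminin receptors Itga3, Itga6 and Itgb1 had 0 and 1, 0 and 0, and 1 and 0, while Itgb4 had 4 and 2 and Dag1 3 and 3. Windows of the 3 laminin genes were 158.3 to 215.1 kb wide and those of these receptors 109.3 to 203.8 kb. Called regions per library numbered 18 to 32 in the Lamc1 window, 9 to 20 at Lamb1 and 8 to 14 at Lama1. At these receptors they numbered 0 to 13. The Lamc1 window was 203.6 kb wide, where chromosome 1 as a whole had 17.4 called regions per Mb as a mean over the 6 libraries. How dense the stretch around Lamc1 was outside this window was not examined. The part of the density of calls in the numbers of combined regions was not tested.

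**Figure D5:**
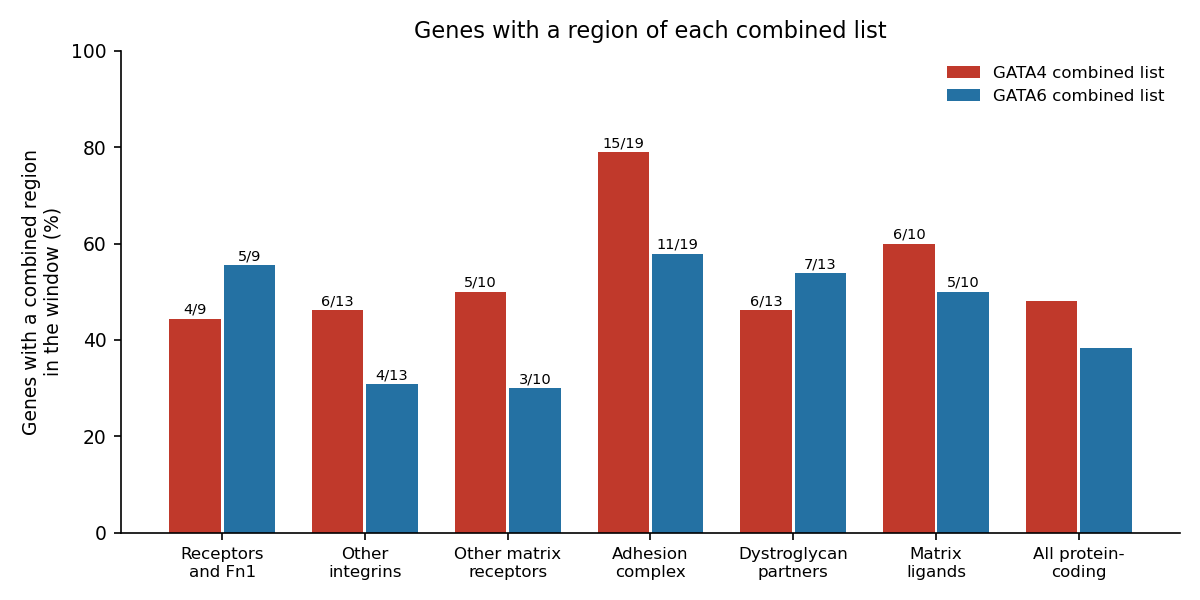
Percent of genes with at least 1 region of the GATA4 (red) or GATA6 (blue) combined list in the gene window, for the 9 genes, the 5 lists around them and all protein-coding genes, with counts above the bars. The 9 genes had 4 of 9 and 5 of 9, and the adhesion complex 15 of 19 and 11 of 19.

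Itgb4 and Dag1 had the most combined regions of the 9 genes. By Euclidean distance between numbers of called regions over the 6 libraries, the genes most like Dag1 were Arhgef1, Iqce and Mpv17, at a distance of 1 each, which 6 genes shared. Those most like Itgb4 were Hells at 1.41, Srgap1 at 1.73 and Cdc16 at 2. Hells and Cdc16 had 0 regions in either combined list while Itgb4 had 4 GATA4 and 2 GATA6 regions, so like numbers of calls did not mean like numbers of regions that recurred.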

How the data were processed

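CUT&RUN for GATA4 and GATA6 was compared in 6 libraries of mouse XEN cells, 3 per factor, grouped by their labels. Per the study's methods and the submitters' processing notes, the authors mapped read pairs with Bowtie2 2.3.4.1 (genome mm10), filtered duplicates, poorly mapped, mitochondrial and blacklisted reads with Picard, SAMtools and bedtools, and called regions in each library with SEACR 1.3 on unscaled pileups at a numeric threshold. A threshold of that kind largely fixes the length of a list and leaves uneven background in place. The deposited library lists hold a position, total and maximum signal (coverage) and the position of the maximum. The deposited combined lists hold positions alone, and recomputing them by requiring overlap in all replicates gave the same regions.

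Genes, TSSs and features came from GENCODE M21 (protein-coding and long noncoding genes), sequence from GRCm38.p6, and promoter sequences from RefSeq. Overlap meant at least 1 bp. A locus was named by its midpoint, first as a promoter (within 1 kb of a TSS). The members and lists were chosen with earlier results of these data known. The 9 genes were all described with every combined region, up to 3 genes per list were named by most combined regions (1 is not reported here), and likeness was measured for the 2 members with most. Group differences were tested by the two-sided exact permutation test with Benjamini-Hochberg adjustment over 3 tests. No batch is given in the labels. Alternatives were windows of 10 and 100 kb, nearest-TSS assignment, 2 of 3 replicates, lists of equal length (42446 regions) or stricter ones, maximum signal, other motif windows and leaving out each library or Itgb1. Window counting and motif search were tested on simulated data, and 9 of 9 windows and 500 of 500 planted motifs were recovered. Python 3.11.15, numpy 2.4.6, scipy 1.17.1, pysam 0.24.0 and matplotlib 3.10.9 were used.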

Additional observations from a re-analysis of the deposited data

How the results depend on the processing

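The exact permutation test cannot give a p below 0.1 with 3 libraries per factor, nor with fewer. No alternative could therefore have gone lower, and the p-values of the alternatives decide nothing here. Of 81 alternatives 4 turned a direction, all of them differences between the factors. Many of the 81 were counts or shares, which have no direction to turn. With a window of 10 kb the 10 GATA4 regions became 3 and the 8 GATA6 regions 1, at 1 gene. With 100 kb they became 19 and 15. With the nearest TSS alone 3 GATA4 regions remained, and 2 GATA6 regions at 2 genes. With 2 of 3 replicates they were 22 and 15, with GATA4 at 7 genes. In stricter lists GATA6 regions were at 3 genes. Leaving out 1 library gave GATA4 regions at 5 to 6 genes (13 to 15 regions) and GATA6 regions at 6 genes (10 to 11 regions). A region then needed 2 replicates in place of 3, which is an easier rule. No share among all genes is given for these counts, nor for those with other windows or stricter lists.

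Between the factors, leaving out 1 library gave a difference of 1.67 to 10.2 called regions, of -0.00148 to 0.0148 percentage points of a list, and of -0.0892 to 7.65 points of percentile. The percentile difference turned to -3.09 in stricter lists and to -0.089 by maximum signal. The cause was not tested. Replicate numbers did not pair the libraries (correlations of deviations 0.00102, 0.00148 and 0.00118 over 201994 regions), and with the replicate block the differences were 6.67, 0.00751 and 4.71, with exact sign-flip p of 0.5, 0.75 and 0.25, the last being the smallest that 3 pairs allow. The share of loci with a GATA motif was 25% within 250 bp of the midpoint and 25% around the maximum.

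Signal of 4 fragments in a typical region and an unknown depth limit all of these counts. A region missing from a list did not pass the threshold in that library, whatever its signal, and no control library was used.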
